A study of Mus musculus with 6 samples.

Results

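Small nucleolar RNAs (snoRNAs) and small Cajal body RNAs (scaRNAs) were described in mouse NIH/3T3 cells without Ki-67 and in their wild-type (WT) counterparts. They were taken as the genes with the biotype snoRNA or scaRNA in the GENCODE M21 annotation that had at least 60 counts in total over the 6 libraries. That rule kept 130 of the 1558 such genes, among 54146 genes in the count files. A further 141 had between 1 count and that minimum, and 1287 had 0 counts. The members were thus chosen by their total counts, with no regard to group, and 81.3% of all gene counts came from the knockout libraries. Just inside the minimum lay Gm23346 with 68, Gm25291 with 71 and Snord71 with 72 counts, and just outside it Gm26287 with 57, Gm25635 with 56 and Snora73a with 55 counts. By symbol, 37 members were C/D box snoRNAs, 14 were H/ACA box snoRNAs and 7 were Cajal body RNAs, while the symbols of the other 72 did not tell the class. All 130 passed the filter on low counts and had at least 1 count in each of the 6 libraries.

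The cells were NIH/3T3, a line of embryonic fibroblasts from Swiss albino mice. The groups were KO clone 1 and KO clone 2, each an Mki67-/- clone, and WT cells, with 2 libraries each. Mki67 encodes Ki-67, the proliferation marker that coats mitotic chromosomes. All groups were grown alike in serum-containing medium with no further treatment named. Each knockout group is 1 clone, and neither the way the clones were made nor the edited part of the gene is given in the sources used here. Total RNA was depleted of ribosomal RNA and sequenced with a strand-specific kit, which captures RNAs of this size in part. The labels do not say that replicates were separate cultures, so p-values measure the spread between these libraries, which may be technical. In bulk RNA, fewer cells that make an RNA and less of it per cell cannot be told apart.

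Gene counts per library were 15087148 to 19678782 in the knockout libraries, against 3873249 and 11377172 in WT replicates 1 and 2, so that the first WT library is the least precise. Levels below are CPM, counts divided by the library total, scaled by TMM, edgeR's correction for library composition. A floor of 3 counts stood at 0.152 to 0.199 CPM before that scaling in knockout libraries, against 0.775 and 0.264 in WT libraries. Mki67 had levels of 4.24, 4.58, 4.32 and 7.69 in knockout libraries, against 49.1 and 55.1 in WT libraries (log2 fold change -3.35 ± 0.18 SE, edgeR adjusted p = 1.12e-08). The protocol text names 4T1, a mammary tumour line, whereas titles and sources name NIH/3T3. Epcam was at 0 counts in all 6 libraries, the 4 epithelial markers summed to 0.782 to 1.16 in knockout and to 0.541 and 0.814 in WT libraries, and the 5 fibroblast markers summed to 5516 to 6438 in knockout and to 7205 and 8161 in WT libraries.

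snoRNAs guide the chemical modification of ribosomal RNA in the nucleolus: C/D box RNAs direct 2'-O-methylation by fibrillarin, and H/ACA box RNAs direct the change of uridine to pseudouridine by dyskerin. scaRNAs do the same for spliceosomal RNAs in Cajal bodies, and a few snoRNAs are needed to cut the ribosomal RNA precursor rather than to modify it. In mammals most are trimmed out of introns of host genes, many of which encode ribosomal or other translation proteins, so their supply follows both host transcription and the assembly of the ribonucleoprotein (snoRNP).

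The 130 RNAs together were less abundant in the knockout clones than in WT. Their summed level was 5040 and 5062 in KO clone 1 and 5062 and 5921 in KO clone 2, against 7455 and 6452 in WT. No knockout library reached either WT library. As shares of all gene counts these RNAs held 0.508%, 0.520%, 0.518% and 0.603% in the 4 knockout libraries, against 0.709% and 0.630% in the WT libraries. The log2 ratio of the group means was -0.40 for all members, -0.28 for C/D box RNAs, -0.64 for H/ACA box RNAs, -0.34 for Cajal body RNAs and -0.41 for those of untold class. The H/ACA sum is mostly that of 1 gene, Snora73b, and without it the ratio of the other 13 was -0.36. The 10 most abundant members made up 57.0% of the summed level, and Snora73b alone averaged 594.

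The same direction was seen in other short RNAs of these libraries. The 83 other small RNA genes were mostly of the biotype snRNA (63), with 19 of the biotype misc_RNA. They summed to 45593 and 43778 in KO clone 1 and to 45968 and 55849 in KO clone 2, against 75155 and 68551 in WT (log2 ratio -0.59). Most of that sum was Rn7sk, the RNA that holds back transcription elongation, which did not pass the test (log2 fold change -0.42 ± 0.17, edgeR adjusted p = 0.070). The part that library making has in this shared shift was not tested, and the tests below are therefore given with 3 scalings of the libraries.

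**Figure D1:**
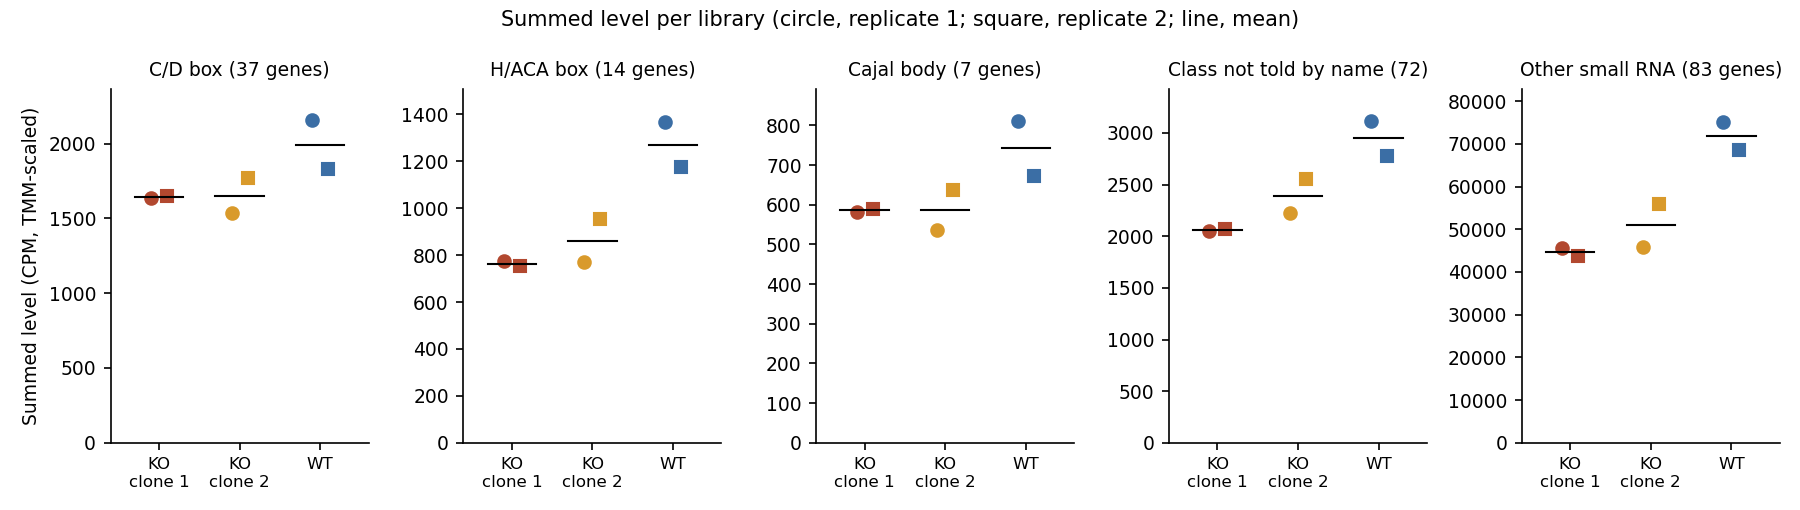
Summed level in CPM, scaled by TMM over all genes (vertical axis), of each class of small RNA in each library, with KO clone 1 and KO clone 2 left of WT. Each point is 1 library and each line a group mean; the sums of the 130 snoRNAs and scaRNAs lie at 5040 to 5921 in knockout libraries and at 6452 and 7455 in WT libraries before any rescaling to small RNAs.

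Against WT, 54 of the 130 RNAs were called lower in the mean of both clones, 3 were called higher and 73 did not pass the test (edgeR quasi-likelihood test, Benjamini-Hochberg adjusted p below 0.05). These are 41.5% and 2.31% of the members, beside 18.2% of all 13120 genes tested that were called lower and 16.6% that were called higher, or 34.8% in either direction. The median log2 fold change was -0.43 for the members and 0.0049 for all genes. The called falls spanned -1.82 to -0.32, and 9 of them were at least 2-fold, whereas none of the 3 rises was. In 67 members every knockout library lay below both WT libraries (24.7% of all genes tested), and in 7 members every knockout library lay above them (25.1% of all genes). Seen clone by clone, KO clone 1 had 49 members lower and 3 higher, beside 16.5% and 15.2% of all genes. KO clone 2 had 38 members lower and 2 higher, beside 14.5% and 12.9% of all genes. Both clones were set against the same WT libraries. Among the single libraries left out, 3 moved a clone's count by over 1.5 times. Without KO clone 1 replicate 2 there were 26 members lower and 1 higher in clone 1, beside 1273 and 932 of all genes. In clone 2 there were 10 lower and 1 higher without its replicate 1, beside 914 and 754 of all genes, and 25 lower and 1 higher without its replicate 2, beside 1116 and 967. In the mean of both clones, with 1 library left out, the members' median log2 fold change was -0.35 to -0.55, beside -0.017 to 0.047 for all genes.

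These counts are relative to the genes that set the scale, since another scale shifts all genes by nearly the same amount. The members' median stayed 0.44 below that of all genes in each of the 3 scalings, at -0.43, -0.033 and 0.18. With the libraries scaled to the snoRNA and scaRNA genes themselves, which centres the members near 0 by construction, the median of all genes moved to 0.41. There 14 members were lower (10.8%) and 12 higher (9.23%), beside 6.05% and 42.0% of all genes. With scaling to the 83 other small RNA genes, an alternative added after the data were seen, the median of all genes moved to 0.62. There 5 members were lower (3.85%) and 30 higher (23.1%), beside 4.32% and 61.4% of all genes. A smaller share of the members than of all genes was thus called higher under each scaling, and a sign that turns under a small RNA scaling follows from the shift of all genes and is no separate result about a member. The 5 members lower under all 3 scalings were Gm24620, Gm25848, Scarna8, Snora47 and Gm22767, and all 3 rises stayed higher under each.

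**Figure D2:**
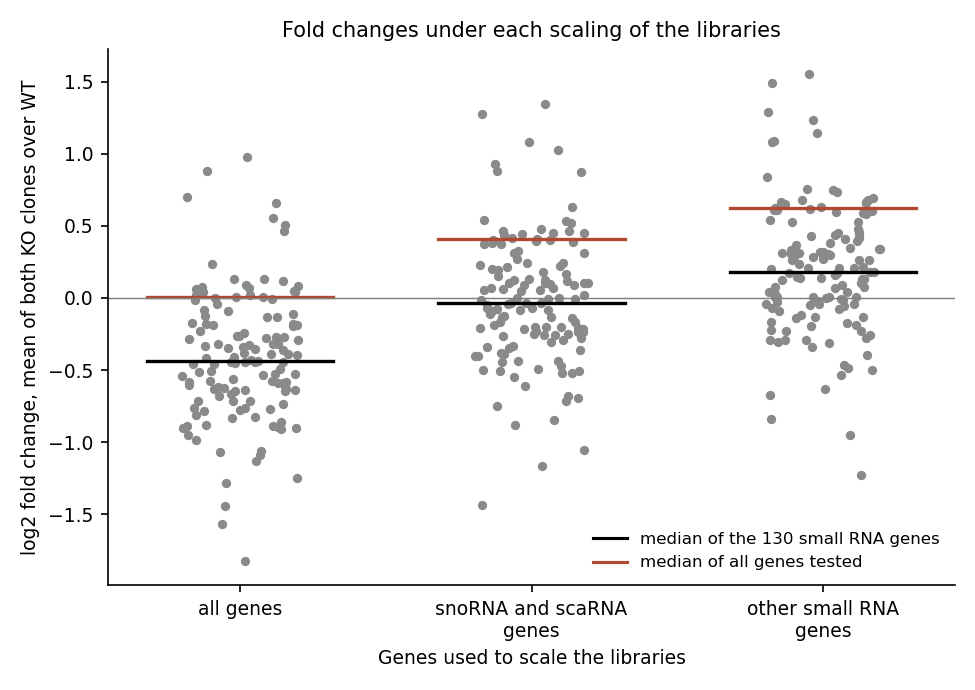
Log2 fold change of the mean of both KO clones over WT (vertical axis) of the 130 snoRNA and scaRNA genes, each a grey point, with libraries scaled to all genes, to snoRNA and scaRNA genes or to other small RNA genes. Black lines mark the members' median, which turns from -0.43 and -0.033 to 0.18, and red lines the median of all genes tested, which lies at 0.0049, 0.41 and 0.62.

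Class by class, the share called lower with scaling to all genes was 42.9% for H/ACA box, 29.7% for C/D box, 42.9% for Cajal body RNAs and 47.2% for those of untold class, beside 18.2% of all genes, and each class median turned to above 0 with scaling to other small RNAs. Of 14 H/ACA box RNAs 6 were lower with a median of -0.45, but 2 were lower and 2 higher with scaling to snoRNA and scaRNA genes and 1 lower and 3 higher with scaling to other small RNAs. Of 37 C/D box RNAs 11 were lower with a median of -0.28, which turned to 1 lower and 4 higher, and to 12 higher, under the same 2 scalings. Of 7 Cajal body RNAs 3 were lower and 1 higher with a median of -0.45, against 1 and 1, and 1 and 2, under those scalings. Among the 72 RNAs of untold class 34 were lower and 2 higher with a median of -0.55, against 10 and 5, and 3 and 13. Over all genes 6.05% were lower and 42.0% higher with scaling to snoRNA and scaRNA genes, and 4.32% and 61.4% with scaling to other small RNAs. In every class a smaller share than that of all genes was called higher, at 10.8% and 32.4% for C/D box RNAs. No test was made of a difference between classes.

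Box letters in the annotated transcripts place most of the RNAs of untold class. The letters TGATGA within 25 bases of the 5' end stand for the C box, CTGA within 25 bases of the 3' end for the D box, ACA in the last 8 bases for the ACA box, and ANANNA between 35% and 65% of the length for the H box, each searched on the transcript strand. ACA was present in 14 of 14 H/ACA box members by symbol and in 4 of 37 C/D box members, and both C and D letters in 0 of 14 and in 24 of 37. The H letters tell the classes apart less well: ANANNA was present in 13 of 14 H/ACA box members, in 16 of 37 C/D box members and in 77.3% of all 1558 annotated genes. Of the 72 members of untold class, 52 held ACA and 14 held C and D letters, of which 2 held both kinds. Over all 1558 annotated genes 47.6% held ACA and 20.3% held C and D letters. The 69 members with ACA letters alone had a median log2 fold change of -0.54. Of them 31 were lower (44.9%) and 1 higher (1.45%), beside 18.2% and 16.6% of all genes. The median became -0.14 and 0.08 with scaling to snoRNA and scaRNA genes and to other small RNAs. The 37 with C and D letters alone had a median of -0.29 (13 lower, 35.1%, and 2 higher, 5.41%), which became 0.10 and 0.31. Length went with the change in the same way: the median was -0.28 in 45 members of up to 100 bases, -0.53 in 73 members of over 100 and up to 150 bases and -0.61 in 12 longer members, all of them turning to above 0 (0.31, 0.088 and 0.0026) with scaling to other small RNAs. Spearman's rho of length and log2 fold change was -0.38 across the 130 genes, which share the same libraries and are not independent. C/D box members had a median length of 79 bases and H/ACA box members of 134.5, so class and length cannot be told apart here.

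**Figure D3:**
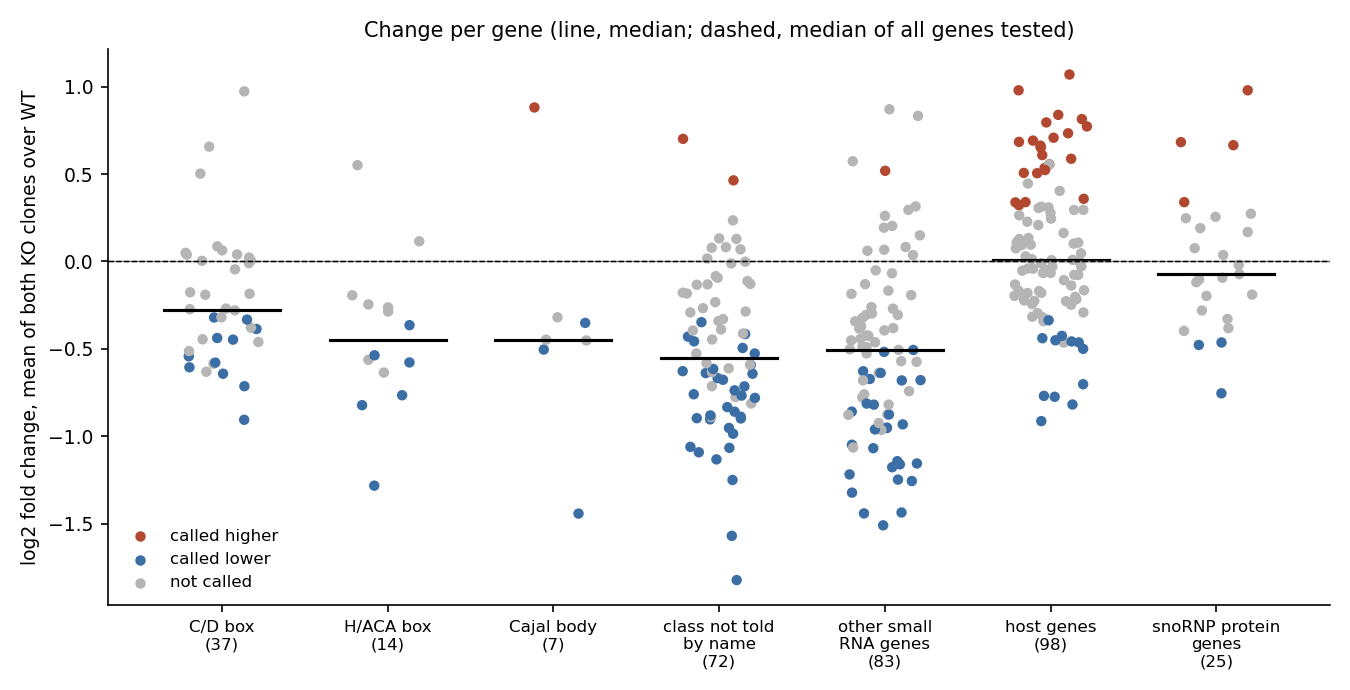
Log2 fold change of the mean of both KO clones over WT (vertical axis) per gene, by class of small RNA, for other small RNAs, for host genes and for snoRNP protein genes, with the number of genes in brackets and TMM scaling over all genes. Black lines are medians, at -0.28 for C/D box, -0.45 for H/ACA box and Cajal body and -0.55 for untold class, beside 0.0085 for host genes; with scaling to other small RNAs the 4 class medians lie above 0.

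Snora73b, the U17 RNA, known from yeast and human cells to be needed to cut the ribosomal RNA precursor rather than to modify it, was the most abundant member. It lies at chr4:132352322-132352526, minus strand (GRCm38), inside the span of Rcc1, the nucleotide exchange factor of Ran, and of the noncoding Snhg3. The transcripts shown here and below are from GENCODE M21 on GRCm38, 5' to 3', with the box letters found in capitals. Snora73b is shown with its H (AGATGA) and ACA letters, as the most abundant H/ACA RNA.
Snora73b: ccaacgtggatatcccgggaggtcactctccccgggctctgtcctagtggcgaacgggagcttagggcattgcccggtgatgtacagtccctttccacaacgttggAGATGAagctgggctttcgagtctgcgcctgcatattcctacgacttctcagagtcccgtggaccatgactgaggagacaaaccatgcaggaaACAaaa
Its level was 445 and 429 in KO clone 1 and 454 and 567 in KO clone 2, against 898 and 773 in WT. All knockout libraries lay well below both WT libraries, and the log2 fold change was -0.82 ± 0.12 (edgeR adjusted p = 0.000205). It stayed lower with scaling to snoRNA and scaRNA genes (-0.40, adjusted p = 0.014) but not by the test with scaling to other small RNAs (-0.19, adjusted p = 0.167). Rcc1 was lower as well, at -0.82 ± 0.11, and Snhg3 at -0.62 ± 0.16. When strand was ignored Snora73b had 0 counts, as reads over overlapping genes on both strands are left uncounted.

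The other RNAs of precursor cutting and small subunit processing did not move alike. Snord118, the U8 RNA, known from Xenopus for a part in making the RNAs of the large ribosomal subunit, is an independent gene without a host in this annotation. Its level was 73.8 and 68.9 in KO clone 1 and 98.9 and 120 in KO clone 2, against 139 and 120 in WT. KO clone 1 lay far below WT and the second library of KO clone 2 reached the lower WT library. The log2 fold change was -0.54 ± 0.12 (edgeR adjusted p = 0.00327), and it turned to 0.088 with scaling to other small RNAs. Snord13, the U13 RNA, known in human cells for a part in acetylating the RNA of the small subunit, had 373 and 382 in KO clone 1 and 303 and 333 in KO clone 2, against 420 and 297 in WT. The groups overlapped, and the log2 fold change was -0.045 ± 0.13 (edgeR adjusted p = 0.83). It was 0.60 (edgeR adjusted p = 0.000684) with scaling to other small RNAs. There the median of all genes was 0.62, and 61.4% of them were called higher. Snora73a, the other U17 gene, had 55 counts in all and was not a member.

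Among the further abundant C/D box RNAs, which guide methylation, called falls were small. Snord17 had 366 and 343 in KO clone 1 and 344 and 415 in KO clone 2, against 499 and 426 in WT, and all knockout libraries were lower (-0.33 ± 0.12, edgeR adjusted p = 0.0454). Snord104 had 199 and 199 in KO clone 1 and 184 and 210 in KO clone 2, against 249 and 245 in WT, again with no overlap (-0.32 ± 0.11, adjusted p = 0.0331). Snord17 was called in 7 and Snord104 in 8 of 15 other settings, the small RNA scalings not among them. With scaling to other small RNAs, where the median of all genes was 0.62, they stood at 0.30 and 0.31. Snord17 lost its call with any 1 library other than WT replicate 2 left out, with an adjusted p up to 0.238 (WT replicate 1 left out). Snord104 lost it with any 1 of the 6 left out, up to 0.159 (KO clone 2 replicate 1 left out). Snord15a, inside the ribosomal protein gene Rps3, had 196 and 203 in KO clone 1 and 217 and 273 in KO clone 2, against 258 and 246 in WT. One knockout library exceeded both WT libraries, and the change of -0.19 ± 0.12 did not pass the test (adjusted p = 0.23).

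H/ACA box RNAs guide pseudouridylation, and of the 5 most abundant 3 were called lower with scaling to all genes. Snora62, inside the ribosomal protein gene Rpsa, had 48.1 and 46.0 in KO clone 1 and 39.7 and 49.7 in KO clone 2, against 67.8 and 68.9 in WT. All knockout libraries were lower (-0.58 ± 0.12, edgeR adjusted p = 0.00264), though the value turned to 0.044 with scaling to other small RNAs. Snora78, in the noncoding Snhg9, had 81.9 and 95.9 in KO clone 1 and 77.5 and 92.4 in KO clone 2, against 91.2 and 71.0 in WT. These groups overlapped (0.12 ± 0.13, adjusted p = 0.544). Snora17 had 63.3 and 53.2 in KO clone 1 and 50.1 and 57.5 in KO clone 2, against 72.5 and 62.9 in WT, and did not pass the test (-0.26 ± 0.13, adjusted p = 0.122).

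The largest called falls were seen in 6 RNAs of intermediate to low abundance. Scarna8, a Cajal body RNA inside Haus6, a gene of the augmin complex that builds spindle microtubules, had 1.61 and 1.95 in KO clone 1 and 2.47 and 2.08 in KO clone 2, against 5.43 and 5.50 in WT. The groups were far apart (-1.44 ± 0.23, edgeR adjusted p = 0.000349), while Haus6 stood at 0.31 and was not called (adjusted p = 0.144). Snora47, an H/ACA RNA inside Zbed3, whose protein binds Axin in Wnt signalling, had 6.56 and 6.53 in KO clone 1 and 5.18 and 6.06 in KO clone 2, against 15.5 and 14.3 in WT. Each knockout library had less than the lower WT library (-1.28 ± 0.17, adjusted p = 6.33e-05), and Zbed3 was lower at -0.77 ± 0.14. The rest carry no assigned function in the files. Gm22767, inside Ppp1r8, a nuclear inhibitor of protein phosphatase 1, had 28.4 and 21.3 in KO clone 1 and 30.5 and 45.8 in KO clone 2, against 71.6 and 74.9 in WT (-1.25 ± 0.16, adjusted p = 5.19e-05).

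Gm25848, inside the ubiquitin ligase gene Fbxo45, had 4.24 and 6.40 in KO clone 1 and 9.06 and 8.08 in KO clone 2, against 21.2 and 19.2 in WT. No knockout library came near WT (-1.57 ± 0.18, edgeR adjusted p = 2.16e-05). Gm24620, inside the kinesin gene Kif13a, had the steepest fold change and few reads, 115 in all. Its level was 0.807 and 1.00 in KO clone 1 and 1.23 and 0.782 in KO clone 2, against 2.71 and 3.69 in WT (-1.82 ± 0.30, adjusted p = 0.000491). Gm23297, inside the histone chaperone gene Nap1l4, had 2.17 and 2.01 in KO clone 1 and 1.73 and 1.95 in KO clone 2, against 4.88 and 4.05 in WT (-1.13 ± 0.24, adjusted p = 0.00286). Its call was lost with scaling to other small RNAs (-0.54, adjusted p = 0.078), whereas the other 5 kept theirs at -0.63 to -1.23. In each of the 6 no knockout library overlapped WT.

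The 5 RNAs called lower under all 3 scalings are shown with their box letters. Gm24620 (chr13:46767520-46767649, minus strand), Gm22767 (chr4:132838383-132838547, minus strand), Scarna8 (chr4:86586453-86586583, minus strand) and Snora47 (chr13:95330600-95330737, plus strand) each carry H and ACA letters.
Gm24620: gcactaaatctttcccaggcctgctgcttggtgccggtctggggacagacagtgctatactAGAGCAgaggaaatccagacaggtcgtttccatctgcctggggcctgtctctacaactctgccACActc
Gm22767: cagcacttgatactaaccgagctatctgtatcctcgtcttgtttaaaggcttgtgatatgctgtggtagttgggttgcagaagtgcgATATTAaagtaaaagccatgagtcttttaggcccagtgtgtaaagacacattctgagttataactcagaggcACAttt
Scarna8: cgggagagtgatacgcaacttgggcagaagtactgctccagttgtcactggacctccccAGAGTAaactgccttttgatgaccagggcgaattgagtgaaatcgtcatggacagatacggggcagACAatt
Snora47: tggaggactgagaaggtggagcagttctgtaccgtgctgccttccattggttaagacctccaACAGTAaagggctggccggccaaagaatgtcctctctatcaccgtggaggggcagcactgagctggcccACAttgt
Gm25848 (chr16:32243712-32243855, minus strand) carries C and D letters at its ends as well as ACA, and all 3 are in capitals. It also holds H letters (AAATTA) in its middle, left in lower case here.
Gm25848: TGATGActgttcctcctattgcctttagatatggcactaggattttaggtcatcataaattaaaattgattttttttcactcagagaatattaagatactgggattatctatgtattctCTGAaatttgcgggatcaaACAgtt

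Only 3 members were called higher. Scarna9 and Gm24339 lie 130 bases apart on the minus strand inside Cep295, a centriole gene. In human cells SCARNA9 guides methylation of the U2 spliceosomal RNA. Scarna9 had 16.6 and 18.9 in KO clone 1 and 15.4 and 16.6 in KO clone 2, against 8.68 and 9.37 in WT. Every knockout library lay far above WT (0.88 ± 0.17, edgeR adjusted p = 0.00131). Gm24339 had 5.15 and 5.78 in KO clone 1 and 4.32 and 4.62 in KO clone 2, against 3.80 and 2.70 in WT. The groups did not overlap but lay close (0.70 ± 0.25, adjusted p = 0.0392), and the call was kept in 8 of 15 other settings. It was lost without KO clone 1 replicate 2 (adjusted p = 0.079), KO clone 2 replicate 1 (0.072), KO clone 2 replicate 2 (0.088) and WT replicate 2 (0.497, with a log2 fold change of 0.38). Cep295 itself was higher at 0.69 ± 0.23 (adjusted p = 0.0324). Gm23442, inside Prrc2a, had 55.5 and 64.9 in KO clone 1 and 55.1 and 64.9 in KO clone 2, against 43.4 and 43.6 in WT (0.46 ± 0.13, adjusted p = 0.0132), while Prrc2a stood at -0.18 and was not called. Its call was lost without KO clone 2 replicate 2 (0.40, adjusted p = 0.067). The letters of Scarna9 (chr9:15326264-15326333, minus strand) and Gm24339 (chr9:15326464-15326539, minus strand) show C and D boxes in both, and those of Gm23442 (chr17:35162563-35162696, minus strand) H and ACA boxes.
Scarna9: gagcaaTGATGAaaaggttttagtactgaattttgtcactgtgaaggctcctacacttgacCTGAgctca
Gm24339: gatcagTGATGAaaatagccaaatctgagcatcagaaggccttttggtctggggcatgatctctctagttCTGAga
Gm23442: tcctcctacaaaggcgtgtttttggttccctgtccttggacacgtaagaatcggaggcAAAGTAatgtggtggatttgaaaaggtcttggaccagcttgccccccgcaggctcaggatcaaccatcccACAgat

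**Figure D4:**
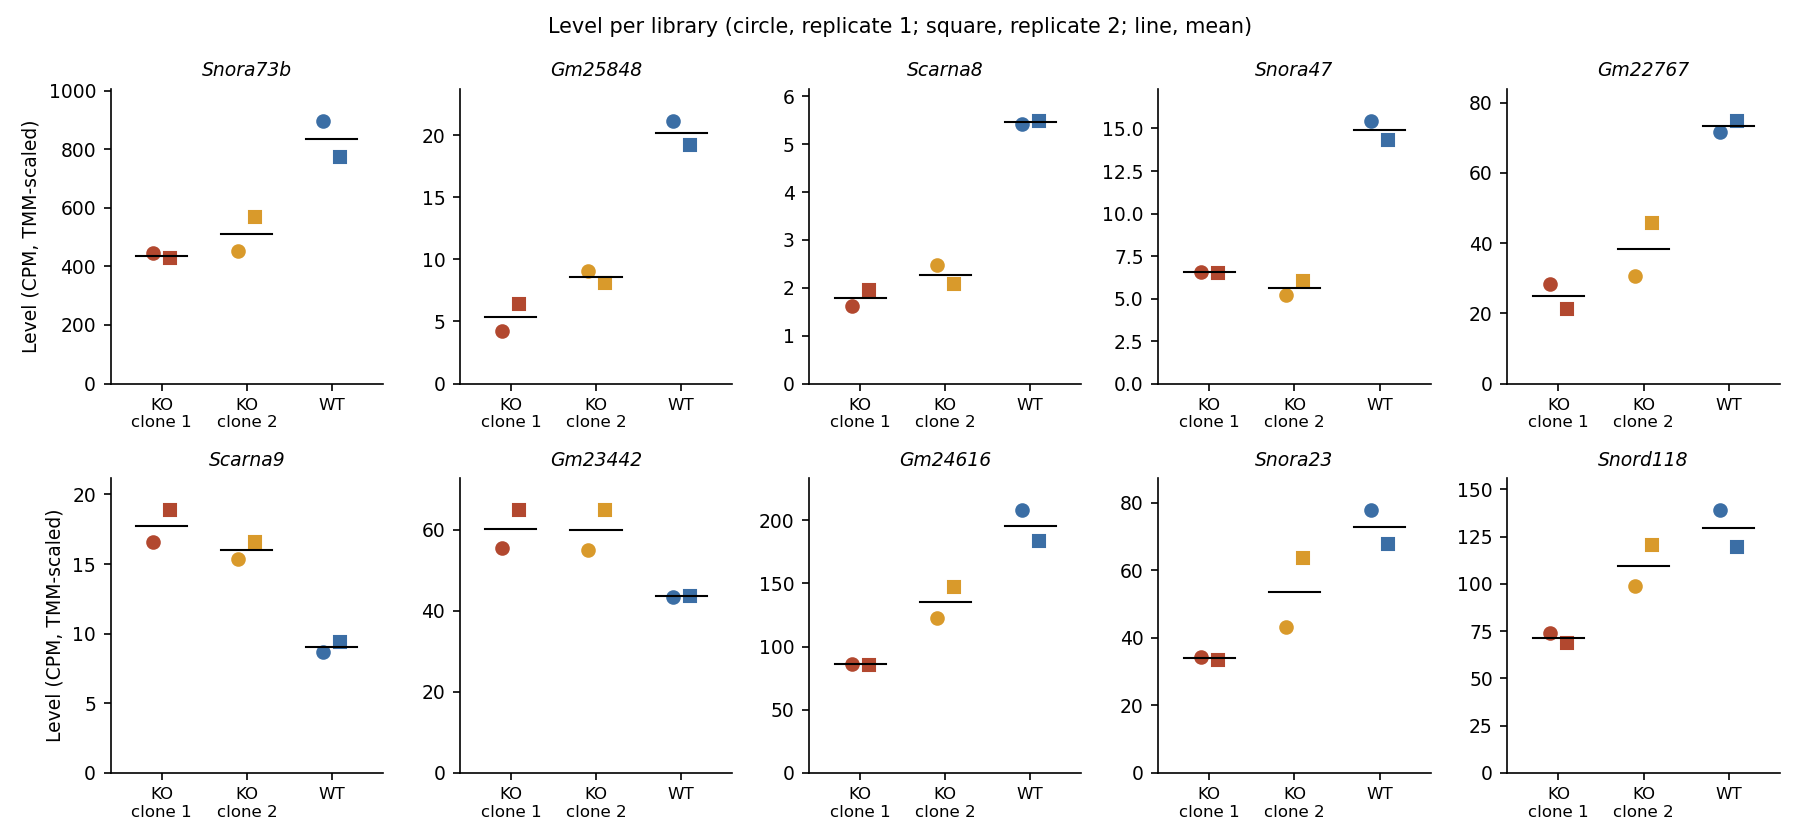
Level in CPM, scaled by TMM over all genes (vertical axis from 0, own range per gene), of 10 snoRNA and scaRNA genes in each library, with KO clone 1 and KO clone 2 left of WT. Each point is 1 library and each line a group mean. Scarna9 lies at 15.4 to 18.9 in knockout and at 8.68 and 9.37 in WT libraries. Snora47 lies at 5.18 to 6.56 in knockout and at 14.3 and 15.5 in WT libraries. The log2 fold change of Snord118 turns to 0.088 with scaling to other small RNAs, where the median of all genes was 0.62.

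Cajal body RNAs guide the modification of spliceosomal RNAs, and apart from Scarna8 and Scarna9 their changes were moderate. Scarna2, a guide for U2 in human cells and the most abundant of them, had 334 and 348 in KO clone 1 and 324 and 385 in KO clone 2, against 480 and 389 in WT. Knockout libraries were all lower, by little in one case (-0.32 ± 0.12, edgeR adjusted p = 0.0573), and without WT replicate 2 the adjusted p was 0.00424. Scarna6, inside the autophagy gene Atg16l1, had 71.5 and 68.6 in KO clone 1 and 76.2 and 93.1 in KO clone 2, against 111 and 108 in WT, with no overlap (-0.50 ± 0.11, adjusted p = 0.00397). Scarna13 had 148 and 141 in KO clone 1 and 112 and 131 in KO clone 2, against 192 and 148 in WT. One knockout library reached the lower WT library, and the call (-0.35 ± 0.13, adjusted p = 0.0449) was lost with any 1 library other than WT replicate 2 left out, most without WT replicate 1 (-0.16, adjusted p = 0.422). The exon of a microRNA gene covers 23.6% of Scarna13. Scarna17 had 9.39 and 10.0 in KO clone 1 and 7.34 and 8.40 in KO clone 2, against 13.0 and 11.3 in WT, and the change of -0.45 ± 0.17 did not pass the test (adjusted p = 0.0584). Scarna2, Scarna6, Scarna13 and Scarna17 all turned to above 0 (0.32, 0.12, 0.29 and 0.16) with scaling to other small RNAs.

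A host gene on the same strand was found for 121 of the 130 members, in 99 distinct genes, and 120 member and host pairs were tested. Per kilobase of annotated sequence 99 of 121 members had a higher mean level than the exons of their host, with a median ratio of 4.31. Of 98 hosts tested, 23 were higher (23.5%) and 12 lower (12.2%), beside 16.6% and 18.2% of all genes, with a median log2 fold change of 0.0085 that lies near the 0.0049 of all genes. A member's log2 fold change was below its host's in 99 of 120 pairs, by a median of 0.48, or 0.49 in the 114 pairs with a single host. Of the 49 tested pairs with the member called lower, the host was lower in 14 (28.6%), higher in 3 (6.12%) and not called in 32. Of 68 pairs with the member not called, the host was lower in 4 (5.88%) and higher in 24 (35.3%), and some of these pairs share a host. Over all genes 18.2% were called lower and 16.6% higher. Across the 120 pairs Pearson's r of the 2 log2 fold changes was 0.34 and Spearman's rho 0.37; pairs share their libraries and some share a host, so no p is given. A common scaling factor enters member and host alike and leaves their difference as it is, whereas a shift of short RNAs alone does not cancel in it. The 83 other small RNA genes had a median of -0.51, and the part of library making in the difference was not tested. By host, 11 of 27 members inside ribosomal protein genes (40.7%), 34 of 82 in other coding genes (41.5%), 5 of 12 in noncoding genes (41.7%) and 4 of 9 without a host (44.4%) were called lower with scaling to all genes, shares close to the 41.5% of all members and beside 18.2% of all genes.

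**Figure D5:**
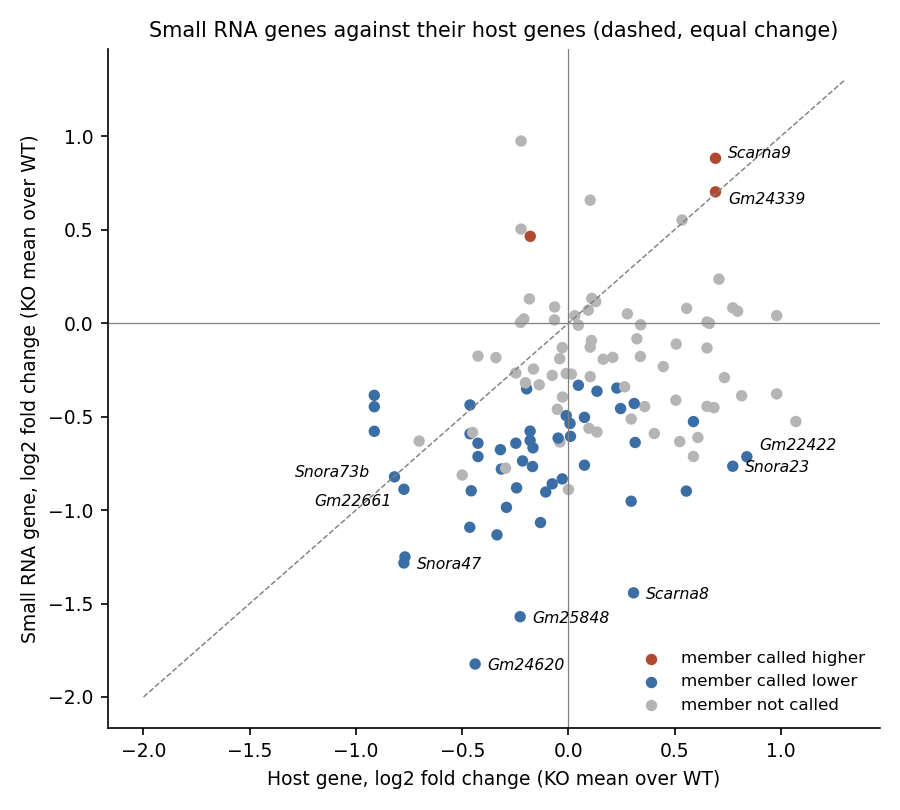
Log2 fold change of the mean of both KO clones over WT of each host gene (horizontal axis) and of the snoRNA or scaRNA inside it (vertical axis) for 120 pairs, with TMM scaling over all genes. Of these pairs 99 lie below the dashed line of equal change. A common scaling factor does not move that position, but a shift of short RNAs alone would. Scarna9 and Gm24339 lie upper right with their host Cep295, and Snora23 lower right against Ipo7.

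Members of the same host did not always move together. Ipo7, which encodes the nuclear import receptor importin 7, was higher at 0.77 ± 0.15 (edgeR adjusted p = 0.0015) and holds 2 H/ACA-type RNAs 23021 bases apart. Snora23 had 34.3 and 33.5 in KO clone 1 and 43.2 and 63.6 in KO clone 2, against 77.9 and 67.7 in WT. All knockout libraries were lower (-0.77 ± 0.15, adjusted p = 0.00133), and the change shrank to -0.36 (adjusted p = 0.080) and -0.14 (adjusted p = 0.437) under the 2 small RNA scalings. Gm25636 had 14.4 and 16.3 in KO clone 1 and 17.0 and 17.7 in KO clone 2, against 18.5 and 13.5 in WT. These groups overlapped (0.082 ± 0.17, adjusted p = 0.743). The RNAs at chr7:110046364-110046547, plus strand, and chr7:110023210-110023342, plus strand, are shown for their difference in response from one host, with H and ACA letters in capitals.
Snora23: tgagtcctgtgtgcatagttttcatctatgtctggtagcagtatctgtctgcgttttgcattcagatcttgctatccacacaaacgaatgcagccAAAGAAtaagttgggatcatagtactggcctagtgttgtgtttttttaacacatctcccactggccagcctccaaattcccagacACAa
Gm25636: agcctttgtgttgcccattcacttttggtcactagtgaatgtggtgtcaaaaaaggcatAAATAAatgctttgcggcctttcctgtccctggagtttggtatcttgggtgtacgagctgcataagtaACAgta

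Elsewhere host and members parted or moved as one. Trmt10c, for a mitochondrial RNA methyltransferase, was higher at 0.84 (edgeR adjusted p = 0.0271), and Gm22422 inside it had 79.1 and 79.0 in KO clone 1 and 62.4 and 76.6 in KO clone 2, against 125 and 119 in WT. That RNA was lower in every knockout library (-0.71 ± 0.11, adjusted p = 0.000334), at -0.088 with scaling to other small RNAs. Zbed3 fell with both of its RNAs, Snora47 at -1.28 and Gm22661 at -0.89. The ribosomal protein gene Rpl13a was lower at -0.43 (adjusted p = 0.00733) with Snord32a at -0.71 and Snord34 at -0.64 both called and Snord35a at -0.18 not called. The C/D box RNA Snord32a had 60.1 and 56.6 in KO clone 1 and 51.5 and 54.3 in KO clone 2, against 106 and 78.6 in WT, with no overlap. The noncoding host 2410006H16Rik was lower at -0.91 (adjusted p = 4.41e-05) with its 3 C/D box RNAs Snord65 at -0.58, Snord49b at -0.45 and Snord49a at -0.39, all called with scaling to all genes. Nop58, itself a host, was higher at 0.98, and its RNAs Snord11 at -0.38 and Snord70 at 0.040 were not called. Wdr43 was higher at 0.65 (adjusted p = 0.00301), and none of its 3 RNAs was called. Snord32a (chr7:45127382-45127464, minus strand) is shown as a C/D box RNA with both boxes in capitals.
Snord32a: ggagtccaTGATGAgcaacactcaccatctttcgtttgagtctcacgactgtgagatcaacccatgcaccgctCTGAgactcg

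Of 25 genes for proteins that assemble with or trim these RNAs, 18 did not pass the test, 4 were higher (16%) and 3 lower (12%), beside 16.6% and 18.2% of all genes, with a median of -0.07. The called shares were thus no larger than those of all genes. Nop58, a core protein of C/D box particles, had 44.5 and 65.6 in KO clone 1 and 47.7 and 54.8 in KO clone 2, against 26.6 and 27.1 in WT (0.98 ± 0.17, edgeR adjusted p = 0.000584). Dkc1, the pseudouridine synthase dyskerin of H/ACA particles, had 25.7 and 39.1 in KO clone 1 and 33.2 and 32.9 in KO clone 2, against 19.8 and 20.7 in WT (0.68 ± 0.18, adjusted p = 0.0085). In both genes every knockout library lay above WT. Nop56, the partner of Nop58, was higher at 0.34 (adjusted p = 0.0289) and Naf1, an assembly factor of H/ACA particles, at 0.67 (adjusted p = 0.0427). Both calls were lost when single libraries were left out, Nop56 in 5 of 6 cases with adjusted p up to 0.134 and Naf1 in 4 of 6 with adjusted p up to 0.157. Ruvbl2, an ATPase of the assembly complex, had 245 and 211 in KO clone 1 and 227 and 239 in KO clone 2, against 435 and 344 in WT (-0.75 ± 0.12, adjusted p = 0.000343). Pih1d1, of the same assembly complex, was lower at -0.46 (adjusted p = 0.00577) and Exosc10, the nuclear exosome nuclease that trims snoRNA ends, at -0.48 (adjusted p = 0.00305), and both turned to above 0 (0.17 and 0.15) with scaling to other small RNAs. Fbl, the methyltransferase fibrillarin, was at -0.40 ± 0.15 and did not pass the test (adjusted p = 0.0547).

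Noncoding genes named as snoRNA hosts were picked by symbol, as Gas5 and those starting with Snhg, the antisense Snhg7os among them. Of the 14 tested, 3 were called lower with scaling to all genes (21.4%), near the 18.2% of all genes called lower. These were Snhg12 at -0.69 ± 0.12 (edgeR adjusted p = 0.00053), Snhg3 at -0.62 ± 0.16 (adjusted p = 0.00817) and Snhg5 at -0.48 ± 0.12 (adjusted p = 0.00567). Gas5, a growth-arrest transcript rich in C/D box RNAs, had 249 and 247 in KO clone 1 and 226 and 221 in KO clone 2, against 239 and 237 in WT, and did not pass the test (-0.01 ± 0.10, adjusted p = 0.95).

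Short RNAs of other families were also lower when scaled to all genes. Of the 83 genes, 29 were lower (34.9%) and 1 higher (1.20%), beside 18.2% and 16.6% of all genes, with a median of -0.51 that turned to 0.09 when these genes themselves set the scale. Rny3, a Y RNA bound by the Ro protein, had 1828 and 1675 in KO clone 1 and 2247 and 2309.8 in KO clone 2, against 6132 and 4686 in WT (-1.44 ± 0.14, edgeR adjusted p = 3.6e-06). Rnu11, the U11 RNA of the minor spliceosome, had 49.1 and 37.0 in KO clone 1 and 49.6 and 59.1 in KO clone 2, against 152 and 125 in WT (-1.51 ± 0.13, adjusted p = 1.89e-06). In both the groups were far apart. Terc, the H/ACA-containing RNA of telomerase, was higher, with 68.7 and 66.9 in KO clone 1 and 59.0 and 72.8 in KO clone 2, against 51.3 and 43.1 in WT (0.52 ± 0.13, adjusted p = 0.00813).

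The clones differed from each other in 3 members, all higher in KO clone 2 than in KO clone 1, beside 1.18% of all genes called higher and 2.36% called lower, or 3.54% in either direction. Gm24616, inside the translation helicase gene Eif4a2, had 123 and 147 in KO clone 2, against 86.5 and 85.4 in KO clone 1 (0.65 ± 0.13, edgeR adjusted p = 0.0136). Exons of another gene on the same strand cover at least part of Gm24616, and their part in its counts was not tested. Snora23 had 43.2 and 63.6 in KO clone 2, against 34.3 and 33.5 in KO clone 1 (0.65 ± 0.17, adjusted p = 0.0477). Snord118 had 98.9 and 120 in KO clone 2, against 73.8 and 68.9 in KO clone 1 (0.62 ± 0.14, adjusted p = 0.0207). In each of the 3 the libraries of KO clone 2 lay above those of KO clone 1, and those of WT were higher than KO clone 1. None of the calls was kept with either small RNA scaling: the differences were 0.55 to 0.58 with scaling to snoRNA and scaRNA genes and 0.32 to 0.35 with scaling to other small RNAs, at an adjusted p of 0.0506 to 0.216. Without KO clone 1 replicate 1 or 2 the differences of the 3 RNAs stayed at 0.57 to 0.66, but the adjusted p was 0.115 to 0.240, with 1 library left in that clone. Without KO clone 2 replicate 1 the difference was larger, at 0.90 for Snora23 (adjusted p = 0.0190) and 0.77 for Gm24616 (adjusted p = 0.0465), which kept their calls, and at 0.75 for Snord118 (adjusted p = 0.0583). Without KO clone 2 replicate 2 it was smaller and not called, at 0.34 for Snora23 (adjusted p = 0.736), 0.51 for Gm24616 (adjusted p = 0.340) and 0.46 for Snord118 (adjusted p = 0.440). The call of Snora23 also missed the threshold in 5 further settings, with an adjusted p of 0.0508 to 0.0614. Without WT replicate 1 or 2 the differences were 0.65 for Snora23 and Gm24616 and 0.62 for Snord118. Gm24616 (chr16:23111617-23111755, plus strand) is shown with H and ACA letters in capitals, and Snord118 (chr11:69073427-69073561, plus strand) without any, as neither pair of letters was found at its ends.
Gm24616: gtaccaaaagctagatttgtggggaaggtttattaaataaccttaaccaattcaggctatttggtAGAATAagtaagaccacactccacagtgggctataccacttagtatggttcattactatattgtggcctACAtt
Snord118: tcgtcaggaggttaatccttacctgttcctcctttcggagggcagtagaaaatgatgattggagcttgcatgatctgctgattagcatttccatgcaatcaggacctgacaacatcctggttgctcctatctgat

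Counting limits how sharply single members can be read. Exons of another gene on the same strand cover part of 8 members, 3 of them by 50% or more. Without those 8, 50 of 122 members were lower (41.0%) and 3 higher (2.46%) with scaling to all genes. Beside them stood 18.2% and 16.6% of all genes. Reads from the unspliced host can be counted to a member inside its intron, and their part was not tested. Reads on the opposite strand were 0.318% of those on both strands of the members together, with 3 members at 5% or more. Of the 65 members above the median level 40 were lower (61.5%), and of the 65 at or below it 14 (21.5%). Of all genes, at any level, 18.2% were lower. The medians of the members above and below lay close, at -0.44 and -0.41 when scaled to all genes. The part of counting precision in the unequal calls was not tested.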

How the data were processed

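Strand-specific total RNA libraries of 2 Mki67 knockout clones and WT cells, 2 each, were analysed. Per the submitters' processing notes, reads were viewed with FastQC and aligned with STAR 2.6.0c to GRCm38; which annotation the counting used is not stated in those sources. The files hold read counts for each gene as deposited by the authors, not normalized and in the layout of STAR's gene counts, with an unstranded column and a column per strand. Reverse-strand counts were used, to suit the kit. Opposite-strand reads were 4.68% to 6.10%, and rows that name no gene, left out of library sizes and tests, held 46.6% to 50.5% of reads, of which multimapping reads were 28.3% to 30.3% of all reads. STAR leaves reads with several hits uncounted, so values of RNAs with near-identical copies are uncertain.

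Symbols, biotypes, positions and transcript sequences came from GENCODE M21, which matched 54079 of 54146 identifiers. All genes were fitted together in R 4.3.3 with edgeR 4.0.16 (TMM factors 0.951 to 1.03, filterByExpr with a minimum count of 10, quasi-likelihood test, 1 coefficient per group, 3 residual degrees of freedom), and p-values were adjusted by Benjamini-Hochberg over all 13120 genes and called below 0.05. The clones were set against WT as a mean and singly, and clone 2 was set against clone 1. Adjusted p-values in the text are edgeR's. Floors cover counting error only. Each ± SE is the size of the log2 fold change divided by the square root of the quasi-likelihood F value. It thus includes the spread between libraries.

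A host is the gene on the same strand whose span holds the whole RNA and that is no small RNA; where several did, the one with the highest mean count was used. The named RNAs are the 5 of highest level in each class, the 6 largest called falls and rises, those called between clones, the RNAs of ribosomal RNA cutting, those nearest the minimum, and their hosts. Other names were chosen after their values were seen. The members and gene lists were chosen with earlier results of these data known. DESeq2 1.42.0, limma 3.58.1 with voom, other scalings and filters, counts that ignore strand, the replicate number as a block, pooled clones and single libraries left out were tried as alternatives. Replicates of each group differed by more than sampling noise. The steps were tested on simulated counts.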

Additional observations from a re-analysis of the deposited data

Results flagged for a closer look

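The difference between the clones passed the test in 3 RNAs, which is what set them apart for a closer look. On the same strand, exons of another gene overlap Gm24616. On the log2 scale KO clone 2 exceeded KO clone 1 by 0.65 for Gm24616, 0.65 for Snora23 and 0.62 for Snord118. All 3 lost the call with scaling to other small RNAs, at 0.32 to 0.35, and without either library of KO clone 1, though there the difference stayed at 0.57 to 0.66. Without KO clone 2 replicate 1, Snora23 (0.90, edgeR adjusted p = 0.0190) and Gm24616 (0.77, adjusted p = 0.0465) kept the call. Without KO clone 2 replicate 2 the difference of Snora23 shrank to 0.34, and none of the 3 was called. Groups of 2 libraries are too small to look for a single library that stands apart within a group.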

How the results depend on the processing

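For the mean of both clones against WT, 42 to 55 members were lower and 2 to 3 higher in the settings that kept all 6 libraries, small RNA scalings apart. Of all genes, 8.78% to 19.5% were lower and 10.6% to 18.6% higher there. In 15 settings other than the small RNA scalings, single libraries left out included, no called member changed sign. Of the 54 falls 30, and of the 3 rises 1, were called in all settings where the gene was tested. A minimum count of 30 tested 108 members. The cause of a change with a setting was not tested unless stated.

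With scaling to snoRNA and scaRNA genes, all genes were 5515 higher and 794 lower (members 12 and 14) in the mean of both clones, 5284 and 705 (12 and 14) in clone 1, 4268 and 659 (10 and 9) in clone 2, and 97 higher between clones (members 0). With scaling to other small RNA genes, chosen after seeing the data, they were 8053 and 567 (30 and 5), 8781 and 458 (39 and 5), 5607 and 581 (15 and 5), and 50 and 1061 between clones (0 and 4). The first turned Snord17 to 0.089, Snord13 to 0.39, Snord15a to 0.22, Snord104 to 0.094, Snora17 to 0.15, Scarna2 to 0.10 and Scarna13 to 0.072. The second turned Snord17 to 0.30, Snord13 to 0.60, Snord15a to 0.44, Snord104 to 0.31, Snord118 to 0.088, Snora17 to 0.36, Snora62 to 0.044, Scarna2 to 0.32, Scarna13 to 0.29, Scarna6 to 0.12, Scarna17 to 0.16, Snord71 to 0.072, Pih1d1 to 0.17 and Exosc10 to 0.15.

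Without a low-count filter, 264 genes were higher and 549 lower between clones (members 9 and 1), and Snord13 was at 0.0074. Ignoring strand gave a summed log2 ratio of -0.28 for H/ACA box RNAs, in sums made without TMM scaling. Snora73b then has 0 counts, and without it the ratio with the main counts and TMM was -0.36. The part of each change was not tested. Pooled clones give the mean contrast alone.

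With 1 library left out, clone 1 had 932 to 2399 genes higher, 1273 to 2202 lower, members 1 to 3 and 26 to 52. Clone 2 had 754 to 2227 higher, 914 to 1889 lower, members 1 to 2 and 10 to 43. Between clones there were 46 to 519 higher, 110 to 688 lower, members 0 to 12 and 0 to 1. In the mean of both clones the members' median log2 fold change was -0.35 to -0.55. Snord13 ranged from -0.27 to 0.22, above 0 without WT replicate 1, and Snora78 from -0.063 to 0.29, below 0 without WT replicate 2.

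Deviations of same-numbered libraries had correlations of -0.17 (clone 1 and clone 2), 0.39 (clone 1 and WT) and -0.18 (clone 2 and WT). They went together in clone 1 and WT but not with clone 2, so these values do not settle whether the numbers pair the libraries. With the replicate block 54 members were lower and 3 higher in the mean of both clones, beside 18.5% and 18.6% of all genes. In that setting 8 members were higher in clone 2 than in clone 1.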
